A study of Homo sapiens with 12 samples.

Results

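The 10 genes described here belong to the BCL2 family: the survival genes BCL2, BCL2L1, BCL2L2, MCL1 and BCL2A1, the effector genes BAX and BAK1, and the BH3-only genes BCL2L11, PMAIP1 and BMF. They were chosen by name, with earlier results of these data known. Each was matched to its identifier among the 63568 identifiers of the count table. Shares of all genes printed beside counts of members are therefore descriptions and not tests. All 10 were among the 25249 genes with enough counts to be tested. RNA was sequenced from 12 samples of MDA-MB-231 cells, a mesenchymal cell line from triple negative breast cancer, which the study grew in Matrigel to ask how the cells move downward in a 3D culture. The 6 conditions had 2 samples each, namely untreated cells on day 2 (C1), untreated cells on day 4 (C2), and cells taken on day 4 after Paclitaxel at 0.0005, 0.005, 0.05 or 0.5 μM. The labels give the genotype of every sample as wild type, and the culture protocol names a line that carries GFP. The labels place the drug on the 2nd day and were followed here, whereas the methods of the study name the fifth day for its imaging cultures and no other day for the RNA cultures, so the time under drug rests on the labels. The line is a single established line. The methods call the samples of a condition biological replicates, without saying whether these were cultures set up apart from each other. For single doses and days, the p-values measure only the spread between these samples. For all treated against all untreated samples, the spread also holds differences between doses and between days.

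Proteins of the BCL2 family decide whether the outer mitochondrial membrane stays closed. The survival proteins hold the effectors BAX and BAK1 in check, and the BH3-only proteins bind survival proteins in their groove or act on the effectors, which then open pores that release cytochrome c and start the caspases. Paclitaxel stabilizes microtubules and can hold cells in mitosis, a state in which the short-lived MCL1 protein is known to be degraded while transcription is low. RNA levels, which are all that was measured here, say nothing of protein stability, phosphorylation or binding.

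The samples held between 38380629 and 79169121 counts, so that every member had at least 212 counts in every sample, and the precision is limited by the number of samples rather than by depth. C1 stood apart from the other conditions in its spread. Its replicate 2 had the fewest counts of all samples, and its BCL2 level was 6.32 CPM (CPM are counts scaled to a common library size by TMM) against 12.9 CPM in replicate 1. Comparisons of treated with untreated samples, which use C1, are therefore also given with the day 2 samples left out. The 6 markers of a mesenchymal breast cancer line, such as VIM and CD44, summed to between 1758 and 3155 CPM in every sample. Of the genes this line is expected to lack, ESR1, CDH1 and PGR reached at most 0.460, 0.201 and 0.0867 CPM. EPCAM held 4.37 to 6.77 CPM and GATA3 1.58 to 4.44 CPM. KRT8 stood at 315 to 505 CPM and was not a useful negative marker. Markers of endothelial cells and of leukocytes summed to at most 2.94 and 0.459 CPM, and those of fibroblasts to at most 19.6 CPM. Fewer cells and less RNA per cell cannot be told apart in such bulk samples.

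Several members share exonic sequence with other genes in GENCODE 44 on GRCh37, and whether the counting used strand is not given in the sources used here. BCL2L1 (chromosome 20, 30252255 to 30311792, minus strand) shares 41.3% of its exonic bases with ABALON on the opposite strand. ABALON is absent from the count table, so its reads cannot be gauged. BCL2L11 (chromosome 2, 111876955 to 111926021, plus strand) shares 10.8% with MIR4435-2HG on the opposite strand, a long noncoding RNA gene whose counts, 3367 to 7411 per sample, came to 441% of those of BCL2L11. BCL2L2 shares 16.8% with the read-through gene BCL2L2-PABPN1 on its own strand, which held 25 to 71 counts, and 7.98% on the opposite strand with HOMEZ and PPP1R3E, the latter with 218 to 559 counts, or 17.5% of those of BCL2L2. The values of these 3 genes are uncertain to that extent. BCL2, BCL2A1, BAX and PMAIP1 share no exonic base with another gene, and MCL1, BAK1 and BMF between 4.11% and 8.46% with genes whose counts came to at most 0.87% of theirs. PMAIP1 lies on chromosome 18 (57567228 to 57571537, plus strand), BMF on chromosome 15 (40380091 to 40401093, minus strand), BCL2A1 on the same chromosome (80253234 to 80263538, minus strand) and MCL1 on chromosome 1 (150533371 to 150552214, minus strand). Counts per gene do not separate splice forms, such as the long survival form and the short death-promoting form of BCL2L1.

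Per kilobase of exon, the family was led by MCL1 in every condition. In C2 the level of MCL1 was 116 ± 3.00 RPKM (SD, n = 2, CPM per kilobase of exon), and that of BCL2L1, which encodes BCL-xL, was 74.5 ± 14.4 RPKM. PMAIP1, which encodes NOXA, followed at 44.8 ± 0.255 RPKM and BCL2A1, which encodes BFL-1, at 24.8 ± 7.35 RPKM. The effectors were close to each other, with BAX at 14.1 ± 1.26 and BAK1 at 12.3 ± 1.40 RPKM. BCL2L2, which encodes BCL-w, had 6.56 RPKM, BCL2L11, which encodes BIM, 2.61 RPKM and BMF 1.81 RPKM. BCL2 itself, the founding member, was the lowest at 0.672 ± 0.0670 RPKM. With the length of the longest transcript in place of all exons, BAX came to 26.8 RPKM and stood close to BCL2A1 at 30.5, and the order of the 10 members was the same.

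In untreated cells no member was called between day 2 and day 4. In edgeR's quasi-likelihood test (Benjamini-Hochberg adjustment over all genes), 0 of the 10 passed an adjusted p of 0.05, where 0.325% of all genes tested did, 0.321% higher and 0.00396% lower. A single member, BCL2A1, had an unadjusted p under 0.05, as did 10% of all genes, with a log2 fold change of 0.63 ± 0.28 (SE) and an adjusted p of 0.484, and DESeq2 also called 0. In edgeR fits with offsets for GC content and length, BCL2A1 was called higher (0.845, adjusted p = 0.0253), beside 0.804% of all genes. With the replicate block added it was called as well (0.842, adjusted p = 0.0263), beside 0.795%. The C1 and C2 samples overlapped for all 10 members, while they did not overlap for 31.2% of all genes tested.

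Over all treated samples, 3 of 5 survival genes were lower and 2 of 3 BH3-only genes higher than in untreated cells. Comparing the 8 treated with the 4 untreated samples in edgeR's quasi-likelihood test, 6 of the 10 members passed an adjusted p of 0.05 (Benjamini-Hochberg), 3 of them lower (BCL2, BCL2L1 and MCL1) and 3 higher (BAK1, PMAIP1 and BMF). Of all genes tested, 24.4% passed in this comparison, 13.1% higher and 11.3% lower. The median log2 fold change was -0.41 for the 5 survival genes and 0.62 for the 3 BH3-only genes, beside -0.0019 for all genes tested. With the day 2 samples left out, an alternative chosen after the data were seen, 5 of the 6 calls were made again and MCL1 was not (log2 fold change -0.47, adjusted p = 0.0595), where 13.6% of all genes were called. The log2 fold changes were then -0.61 for BCL2, -0.60 for BCL2L1, 0.44 for BAK1, 0.66 for PMAIP1 and 0.69 for BMF. The uncalled members were at -0.13 (BCL2L2), -0.09 (BAX), 0.18 (BCL2L11) and 0.32 (BCL2A1).

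**Figure D1:**
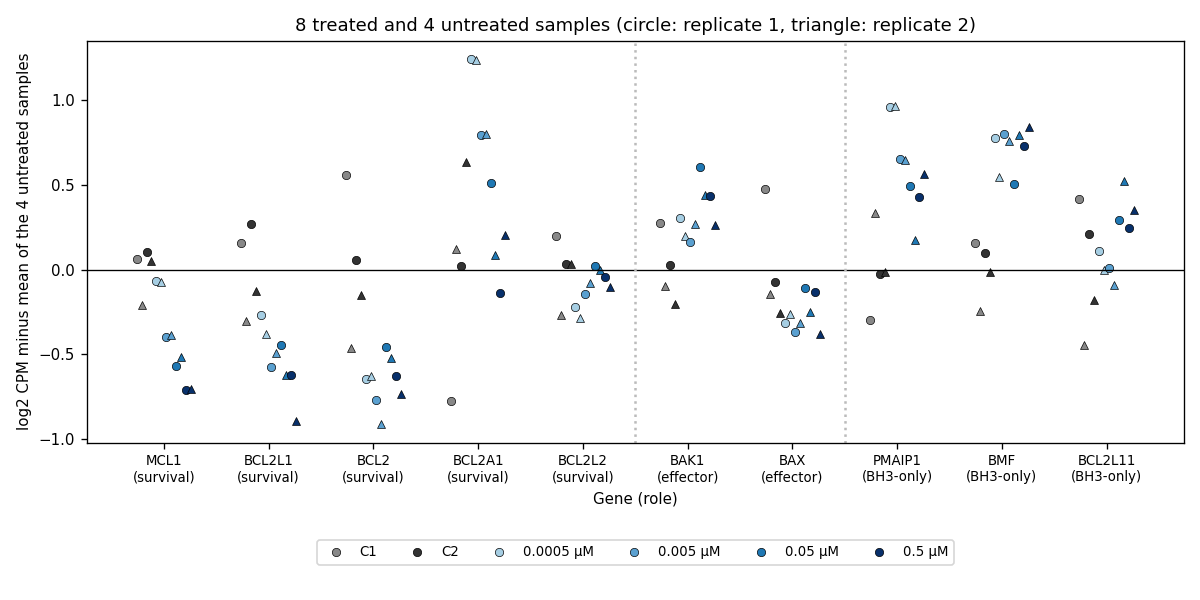
Level of each BCL2 family gene in each sample as log2 CPM minus the mean of the 4 untreated samples, grouped by role along the horizontal axis, with untreated samples in grey and black and the 4 doses from light to dark blue. All 8 treated samples lie above all 4 untreated ones for BMF, and 7 of the 8 do so for PMAIP1, while 7 of the 8 lie below all untreated ones for BCL2L1 and BCL2.

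MCL1, the most abundant survival gene, fell along the doses. Its level was 716 and 592 CPM in C1, 736 and 709.6 CPM in C2, and 654 and 653 CPM at 0.0005 μM. At 0.005 μM it was 521 and 525 CPM, at 0.05 μM 463 and 479 CPM, and at 0.5 μM 418 and 421 CPM. From 0.0005 μM onward each dose lay below the one before with no overlap between samples, and only the lowest dose overlapped with untreated samples, those of day 2. Against C2 the log2 fold change was -0.15 ± 0.14 (SE) at the lowest dose and -0.79 ± 0.15 at the highest (edgeR's quasi-likelihood test, Benjamini-Hochberg adjusted p = 0.643 and 0.00999), and the latter call was lost without either sample of C2 or of that dose (adjusted p up to 0.114). Against all untreated samples it was -0.41 ± 0.13 (adjusted p = 0.0318). That last call is not firm, since it was lost without C1 replicate 1, without either C2 replicate, without the first 0.05 μM or the second 0.5 μM replicate, without both day 2 samples, with a filter at a mean of 1 CPM and with offsets for GC content and length, where the adjusted p reached at most 0.0841.

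BCL2L1 was lower in treated than in untreated samples as well. It stood at 329 and 238 CPM in C1 and at 355 and 269.9 CPM in C2. The treated samples held 245 and 226, 197 and 209, 216 and 191, and 191 and 159 CPM from the lowest to the highest dose. All treated samples were below both C2 samples, and the replicate 1 sample at 0.0005 μM alone was above the lower C1 sample. These values carry the uncertainty from the overlap with ABALON. The log2 fold change of treated against untreated samples was -0.55 ± 0.12 (SE), with an adjusted p of 0.00451 in edgeR's quasi-likelihood test, and the call held in 24 of 24 alternatives. At 0.5 μM against C2 it was -0.84 ± 0.19 (adjusted p = 0.0248 by the same test), a call lost without C2 replicate 1 or without either sample at 0.005 or 0.5 μM (adjusted p up to 0.265).

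BCL2 was low throughout and lower still with drug. Its samples read 12.9 and 6.32 CPM in C1 and 9.07 and 7.87 CPM in C2, and the 8 treated samples ranged from 4.62 to 6.36 CPM with a median of 5.59. Only the higher of the 0.05 μM samples exceeded the lower C1 sample. The log2 fold change was -0.72 ± 0.15 (SE, adjusted p = 0.00233, edgeR's quasi-likelihood test), and -0.61 with the day 2 samples left out (adjusted p = 0.0058). Of 24 alternatives 23 kept this call, which was lost for the mean of the doses against C2 in the model of all conditions (-0.62, adjusted p = 0.063). No single dose was called against C2 for BCL2, with log2 fold changes between -0.80 and -0.45. Among 24 alternatives at each dose it was called lower in 4, 7, 3 and 6 from the lowest to the highest dose, at every dose without either C1 sample and in the fit of the 10 samples of day 4 (adjusted p = 0.0117, 0.00177, 0.0357 and 0.00444). The further calls came from the 4 samples of a comparison alone at all doses but 0.05 μM, all genes above 1 count and both untreated days as the control at 0.005 and 0.5 μM, and the offsets with the replicate block at 0.005 μM (adjusted p from 0.00768 to 0.0485). BCL2L2 showed no change of this kind, with 25.4 to 31.4 CPM in treated and 25.7 to 35.5 CPM in untreated samples and a log2 fold change of -0.11 ± 0.10 (SE, adjusted p = 0.410).

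BCL2A1 differed from the other survival genes. Both samples at 0.0005 μM were the highest of all, at 45.6 and 45.3 CPM, and both at 0.005 μM came next, at 33.3 and 33.5 CPM. The level was 27.4 and 20.4 CPM at 0.05 μM and 17.5 and 22.1 CPM at 0.5 μM, within the range of the untreated samples, which held 11.2 and 20.9 CPM in C1 and 19.5 and 29.8 CPM in C2. The 2 lower doses thus stood above every untreated sample and the 2 higher doses overlapped with them. Neither the difference at 0.0005 μM from C2 (log2 fold change 0.88 ± 0.27, SE, adjusted p = 0.122 in edgeR's quasi-likelihood test) nor that of all treated from untreated samples (0.59 ± 0.26, adjusted p = 0.1099) passed the threshold. With the day 2 samples left out the latter was 0.32 (adjusted p = 0.605), and it was called without C2 replicate 2 and for the mean of the doses against the mean of C1 and C2 in the model of all conditions (0.83 and 0.56, adjusted p = 0.0387 and 0.0318). The difference at 0.0005 μM was called in 9 of 24 alternatives. DESeq2 called it (adjusted p = 0.0416), as did fits with offsets for GC content and length (0.0119, and 0.0118 with the replicate block), with all genes above 1 count left in (0.000279), without either C1 sample (0.0062 and 0.00743), of the 4 samples of the comparison alone (0.000156), of the 10 samples of day 4 (0.00852, with 10.3% of all genes called) and with both untreated days as the control (0.0192).

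The 2 effectors parted. BAK1 held 34.7 and 26.8 CPM in C1 and 29.3 and 24.9 CPM in C2, and 32.2 to 43.7 CPM with a median of 35.1 in the treated samples, with the highest values, 43.7 and 39.0 CPM, at 0.05 μM. Every treated sample was above both C2 samples, and C1 replicate 1 lay among the treated ones. The log2 fold change was 0.33 ± 0.11 (SE) over all treated samples and 0.61 ± 0.16 at 0.05 μM (adjusted p = 0.0338 and 0.0363, edgeR's quasi-likelihood test). Of 24 alternatives, 15 kept the first of these calls. It was lost without either C2 replicate, or when replicate 1 at 0.0005 or 0.5 μM, replicate 2 at 0.005 μM or either replicate at 0.05 μM was removed (adjusted p up to 0.125), with all genes above 1 count left in (0.0565) and for the mean of the doses against C2 (0.0617). The call at 0.05 μM was lost when any single C2 or treated sample was removed (adjusted p up to 0.221).

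BAX did not rise at any dose. Its highest value, 56.5 CPM, was in C1 replicate 1, and all other samples lay between 31.2 and 38.7 CPM. Against C2 the log2 fold changes ran from -0.18 to -0.02, and against all untreated samples the value was -0.29 ± 0.12 (SE, adjusted p = 0.0757, edgeR's quasi-likelihood test), which became -0.09 with the day 2 samples left out. Without C1 replicate 2 or without C2 replicate 2 it was called lower (adjusted p = 0.0461 and 0.0316).

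PMAIP1, whose product NOXA binds MCL1 and BFL-1 and is known to hasten the loss of MCL1, was highest at the lowest dose. It stood at 80.8 and 125 CPM in C1 and at 97.6 and 98.4 CPM in C2. The 0.0005 μM samples both held 194 CPM and the 0.005 μM samples both 156 CPM, followed by 140.0 and 112 CPM at 0.05 μM and 134 and 147 CPM at 0.5 μM. All treated samples were above both C2 samples, and 1 of them, replicate 2 at 0.05 μM, was below the higher C1 sample. At 0.0005 μM the log2 fold change against C2 was 0.99 ± 0.19 (SE, adjusted p = 0.0176, edgeR's quasi-likelihood test), a rise of 1.98-fold. Over all treated samples it was 0.62 ± 0.15 (adjusted p = 0.00631), called in 24 of 24 alternatives. The call at 0.0005 μM was lost only where a C2 sample or a sample of that dose was left out (adjusted p up to 0.143).

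BMF, a BH3-only gene whose product is tied to the cytoskeleton in attached cells, was the only member for which treated and untreated samples did not overlap. It had 10.7 and 8.08 CPM in C1 and 10.2 and 9.48 CPM in C2. With drug it had 16.4 and 13.99, 16.7 and 16.3, 13.6 and 16.6, and 15.9 and 17.2 CPM from the lowest to the highest dose. Such separation was seen for 1 of 10 members and for 13.2% of all genes tested, 7.39% with the treated samples higher. The log2 fold change was 0.72 ± 0.10 (SE, adjusted p = 0.000154, edgeR's quasi-likelihood test), the call held in 24 of 24 alternatives, and an exact permutation test (two-sided, unadjusted) gave p = 0.00404, the smallest this design allows. Against C2, BMF was higher by 0.63, 0.74, 0.62 and 0.75 on the log2 scale from the lowest to the highest dose, and the last 3 were called (adjusted p = 0.0366, 0.0443 and 0.0264). The difference at 0.0005 μM was called in 9 of 24 alternatives, such as DESeq2 (adjusted p = 0.0215) and the fit of the 10 samples of day 4 (0.00599). Removing single samples ended the calls at the other 3 doses. The call at 0.005 μM was lost for any C2 or treated sample other than replicate 1 at 0.05 μM (adjusted p up to 0.241) and that at 0.05 μM for any C2 or treated sample (up to 0.337). At 0.5 μM it was lost for either sample of C2, 0.005 μM or 0.5 μM and for replicate 2 at 0.05 μM (up to 0.197).

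BCL2L11 did not follow the other BH3-only genes. Treated samples held 16.2 to 24.8 CPM and untreated ones 12.6 to 23.0 CPM, and the log2 fold change was 0.15 ± 0.15 (SE, adjusted p = 0.485, edgeR's quasi-likelihood test). Both samples at each of the 2 higher doses exceeded both C2 samples, with log2 fold changes of 0.38 ± 0.23 and 0.27 ± 0.23 that were not called. That at 0.05 μM was called in 2 of 24 alternatives. These were the fit of the 10 samples of day 4 (0.41, adjusted p = 0.0403) and that without C1 replicate 2 (0.40). All values of BCL2L11 carry the uncertainty from the overlap with MIR4435-2HG.

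**Figure D2:**
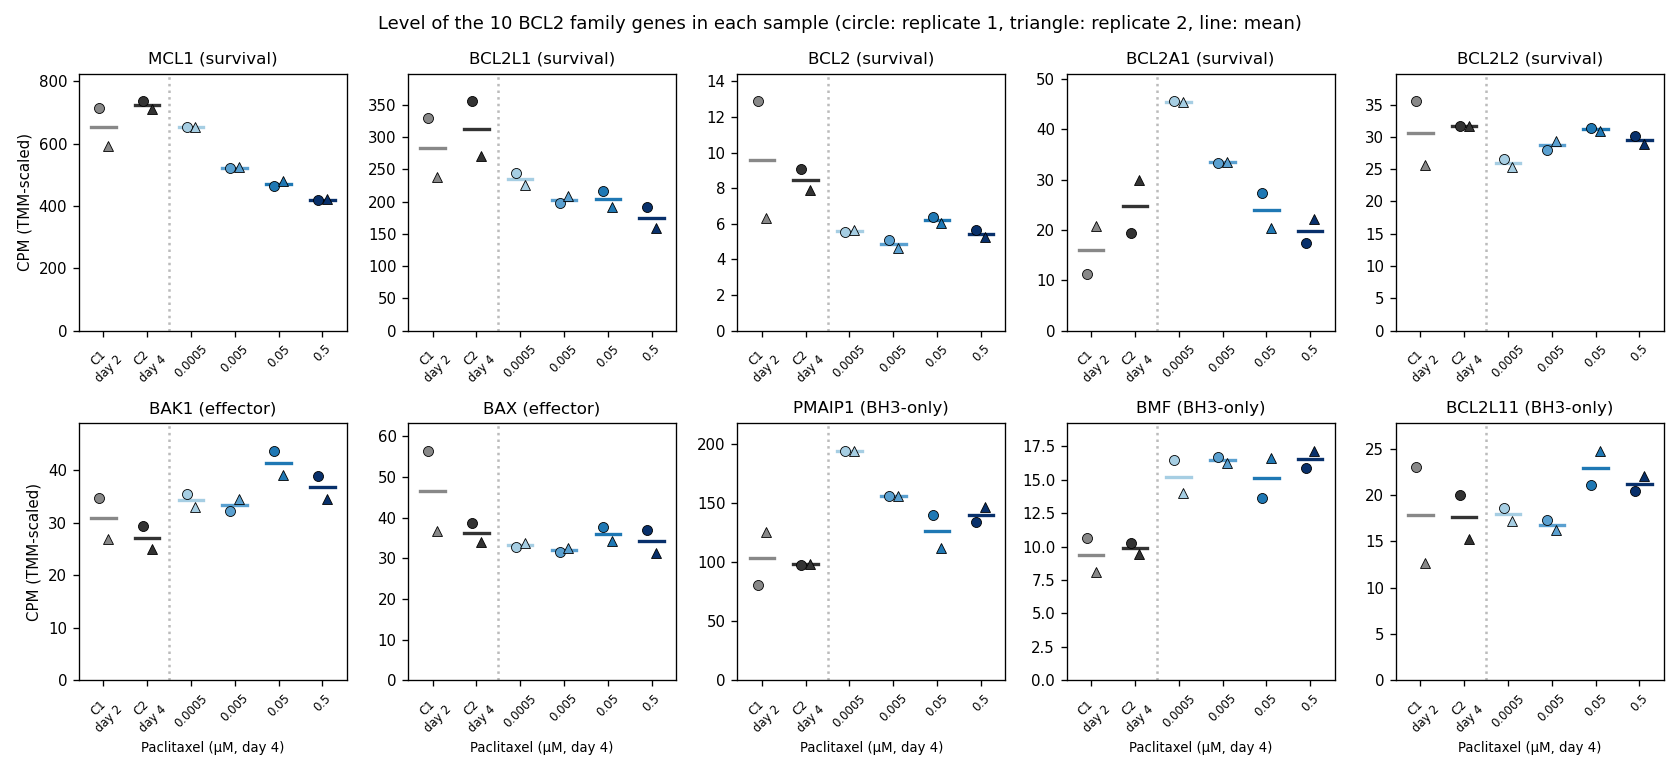
CPM of each of the 10 genes in each sample, with the 2 untreated conditions left of the dotted line and the 4 doses in μM right of it, circles for replicate 1, triangles for replicate 2 and lines for the mean of 2. MCL1 steps down from 654 to 418 CPM over the doses, PMAIP1 and BCL2A1 are highest at 0.0005 μM, and BMF is level over the doses above its untreated samples.

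Each dose was also set against C2 for all members. In edgeR's quasi-likelihood test (Benjamini-Hochberg), 1 of the 10 was called at 0.0005 μM (PMAIP1, higher), where 2.34% of all genes were called, 1.87% higher and 0.479% lower. Again 1 was called at 0.005 μM (BMF, higher), beside 3.28% of all genes, 2.5% higher and 0.776% lower. At 0.05 μM 3 were called (MCL1 lower, BAK1 and BMF higher) beside 8.32% of all genes, 5.09% higher and 3.23% lower. Here MCL1 was at -0.62 ± 0.14 (SE, adjusted p = 0.0221), a call lost without either sample of C2, 0.005 μM or 0.05 μM (adjusted p up to 0.162). At 0.5 μM 3 were called (MCL1 and BCL2L1 lower, BMF higher) beside 6.32% of all genes, 4.36% higher and 1.96% lower. These comparisons share the 2 C2 samples, so they are not independent of each other. Dose and C2 samples failed to overlap for 9, 9, 8 and 8 of the 10 members from the lowest to the highest dose, and for 53%, 62.1%, 52.9% and 59% of all genes tested. Numbers of calls depended on the samples in the fit: with the 10 samples of day 4 alone 4, 5, 7 and 6 members were called, beside 10.3%, 12.7%, 19.2% and 20% of all genes.

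**Figure D3:**
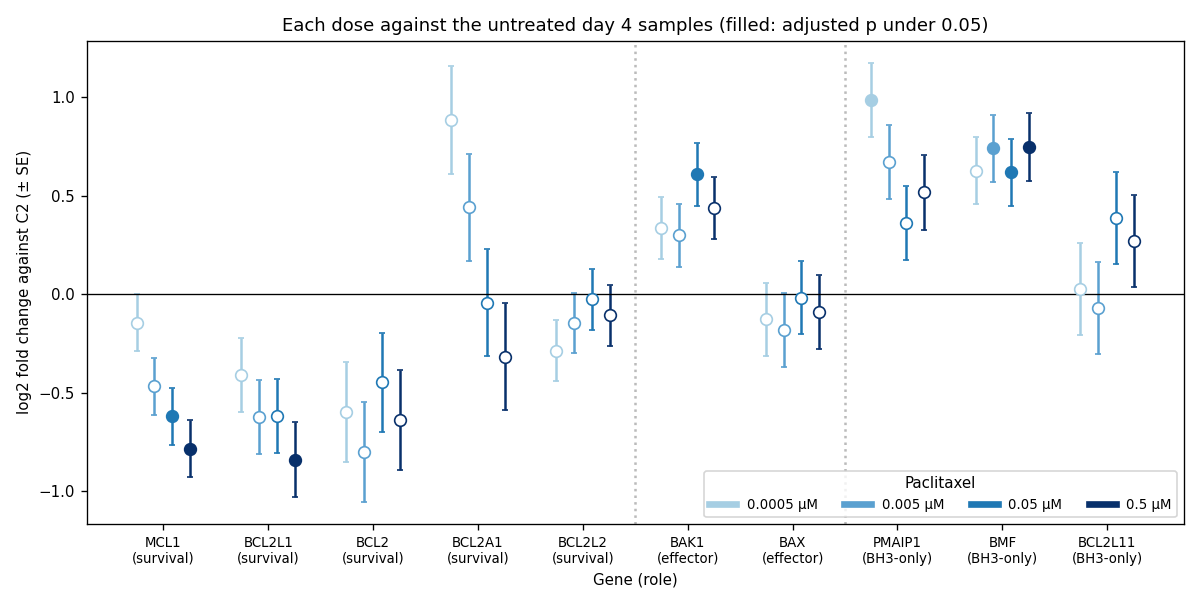
log2 fold change of each gene at each dose against C2, with bars of 1 SE, darker blue for higher doses and filled points where the adjusted p was under 0.05. MCL1 runs from -0.15 to -0.79 with dose, BCL2A1 from 0.88 to -0.32, and BMF stays between 0.62 and 0.75.

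Within the 8 treated samples, the slope per 10-fold dose was tested without any untreated sample. It was called for 2 of the 10 members, both lower (edgeR's quasi-likelihood test, Benjamini-Hochberg), where 3.06% of all genes were called, 1.02% higher and 2.04% lower. BCL2A1 had a slope of -0.41 ± 0.05 (SE, adjusted p = 0.000207) and MCL1 of -0.21 ± 0.04 (adjusted p = 0.0144). PMAIP1, at -0.17 ± 0.05 (adjusted p = 0.0724), and BCL2L1, at -0.13 ± 0.04 (adjusted p = 0.121), were not called, and DESeq2 called both in addition. BMF had a slope of 0.02 ± 0.04. The call of BCL2A1 held in 18 of 18 alternatives, whereas that of MCL1 was lost when replicate 1 at 0.0005 μM or replicate 2 at 0.5 μM was removed, as well as in a comparison of the 2 higher with the 2 lower doses (adjusted p up to 0.165).

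Levels were also summed over each role, per kilobase. These sums are led by the abundant members and hide members that went another way, such as BCL2A1 among the survival genes. The survival genes summed to 230 and 216 RPKM in C2 and to 137 and 134 RPKM at 0.5 μM. MCL1 and BCL2L1 together made up 82.8% to 90.8% of that sum in the untreated and 75.6% to 82.3% in the treated samples. The BH3-only genes, mostly PMAIP1, summed to 49.5 and 49.0 RPKM in C2, 94.4 and 94.0 RPKM at 0.0005 μM, and 67.1 and 73.5 RPKM at 0.5 μM. The ratio of PMAIP1 to MCL1, chosen after their values were seen and not tested, was 0.321 and 0.602 in C1, 0.378 and 0.395 in C2, and 0.666 to 0.992 in the treated samples, with the highest value at 0.5 μM. At the lowest dose PMAIP1 was 1.98-fold its level in C2 and MCL1 was at -0.15 on the log2 scale, both MCL1 samples lying below both C2 samples. At the highest dose MCL1 was at -0.79 and PMAIP1 at 0.52, the latter not called (adjusted p = 0.127).

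**Figure D4:**
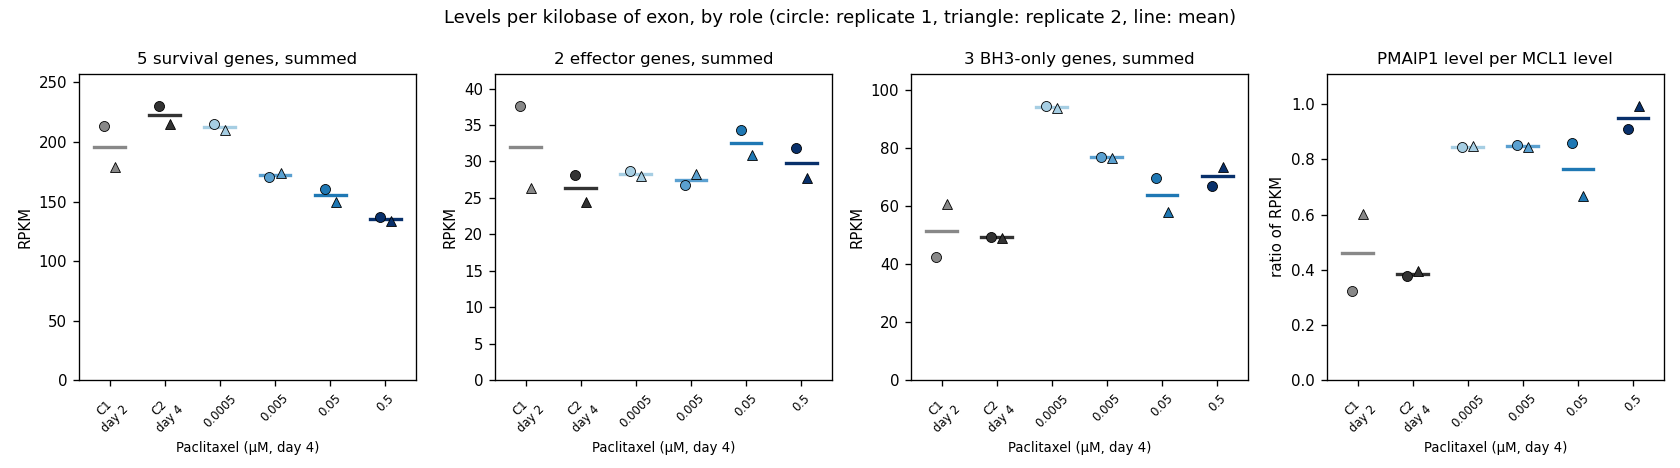
Summed RPKM of the survival, effector and BH3-only genes and the ratio of PMAIP1 to MCL1 in each sample, with conditions along the horizontal axis, circles for replicate 1, triangles for replicate 2 and lines for the mean of 2. The survival sum falls from 230 and 216 RPKM in C2 to 137 and 134 RPKM at 0.5 μM, and the BH3-only sum peaks at 94.4 and 94.0 RPKM at 0.0005 μM.

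The sequences upstream of 3 genes are shown because PMAIP1 and BCL2A1 shared their maximum at the lowest dose, while BMF stayed level over the doses. Each run holds the 250 bases before the RefSeq gene start on GRCh38.p14, 5′ to 3′ on the strand of the gene, with capitals for matches on either strand to an NF-κB pattern (GGG, then 5 bases of any kind, then CC), the core of a cAMP response element (TGACG), a CHOP-ATF4 element (TGATGNAA) or a TATA box (TATAAA). The windows are chr18:59899746-59899995 (plus strand) for PMAIP1, chr15:79971197-79971446 (minus strand) for BCL2A1 and chr15:40108880-40109129 (minus strand, the more upstream of 2 starts) for BMF.
PMAIP1: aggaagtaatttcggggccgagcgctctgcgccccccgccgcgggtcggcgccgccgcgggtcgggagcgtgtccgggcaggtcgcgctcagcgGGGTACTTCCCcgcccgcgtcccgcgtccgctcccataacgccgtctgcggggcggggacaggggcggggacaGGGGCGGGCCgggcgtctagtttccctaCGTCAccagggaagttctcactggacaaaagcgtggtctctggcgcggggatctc
BCL2A1: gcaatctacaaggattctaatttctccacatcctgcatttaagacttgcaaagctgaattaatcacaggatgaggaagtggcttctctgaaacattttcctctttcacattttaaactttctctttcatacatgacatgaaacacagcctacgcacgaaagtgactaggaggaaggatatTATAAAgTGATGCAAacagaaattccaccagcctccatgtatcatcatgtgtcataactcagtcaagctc
BMF: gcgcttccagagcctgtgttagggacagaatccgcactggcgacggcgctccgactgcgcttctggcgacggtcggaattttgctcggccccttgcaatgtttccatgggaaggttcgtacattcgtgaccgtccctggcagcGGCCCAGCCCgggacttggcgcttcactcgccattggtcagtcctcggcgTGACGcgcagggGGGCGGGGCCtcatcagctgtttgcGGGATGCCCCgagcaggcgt
The PMAIP1 window had a GC content of 72.8% and that of BMF 65.2%, whereas that of BCL2A1 had 38.8%. BCL2A1 held a TATA box match at 70 bases before the start and a CHOP-ATF4 match at 63, motifs that 10.7% and 3.14% of 35116 promoters hold in the same length. PMAIP1 held the TGACG core at 55 bases before its start and BMF at 57, a motif in 21.2% of promoters. BCL2, BAX and BCL2L1, which were lower or not called, held it as well, at 225, 134 and 201 bases, and the window at the other BMF start held no match to any of the motifs. PMAIP1 and BMF also held the NF-κB pattern, as did 54.4% of promoters, and BCL2A1 did not. Of the 10 members, 8 had an entry in the table, all but MCL1 and BCL2L2. These matches are descriptions of sequence and show nothing about binding.

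Of 13 other relatives of the family, 12 could be tested and HRK was too low. In treated against untreated samples, where 24.4% of all genes were called and 13.1% were higher, 2 of the 12 rose and 0 fell (edgeR's quasi-likelihood test, Benjamini-Hochberg), BCL2L15 by 1.16 ± 0.30 (SE, adjusted p = 0.0102) and BIK, a BH3-only gene, by 0.81 ± 0.25 (adjusted p = 0.0243) on the log2 scale. Both were low, with at most 0.736 and 1.27 CPM, and neither was called with the day 2 samples left out (1.17 and 0.56, adjusted p = 0.0685 and 0.16). Against C2, BCL2L15 was called higher at 0.05 and 0.5 μM (1.36 and 1.49, adjusted p = 0.0293 and 0.0269) and BNIP3L lower at 0.05 μM (-0.59, adjusted p = 0.0318), doses at which 8.32% and 6.32% of all genes were called. BBC3, which encodes PUMA, was at 0.37 ± 0.16 (adjusted p = 0.101), and its treated samples held 5.21 to 8.92 CPM. Along the doses the slopes of BID, BBC3 and BNIP3L were lower, at -0.25, -0.20 and -0.19 per 10-fold dose (adjusted p = 0.00847, 0.0355 and 0.0296), and 0 relatives rose, beside 2.04% of all genes lower and 1.02% higher. The median log2 fold change of the 12 was 0.05 in treated against untreated samples.

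Downstream of the mitochondria, 4 of 19 genes for release factors, caspases and their targets were called in treated against untreated samples (edgeR's quasi-likelihood test), close to the 24.4% of all genes. HTRA2, a mitochondrial protease that can be released, rose by 0.33 ± 0.09 (SE, adjusted p = 0.0140). PARP1, a nuclear target of caspases, fell by 0.61 on the log2 scale, CASP2 by 0.58 and DFFA, the inhibitor of a caspase-activated nuclease, by 0.30 (adjusted p = 0.00312, 0.0168 and 0.0228). With the day 2 samples left out HTRA2 and PARP1 were called again, and CASP2 (-0.35) and DFFA (-0.19) were not (adjusted p = 0.0639 and 0.193). None of the 19 was called at any single dose against C2, where 3, 1, 1 and 2 had an unadjusted p under 0.05 from the lowest to the highest dose, beside 17%, 18.7%, 23.7% and 22.9% of all genes. The 6 inhibitors of apoptosis gave 0 calls in treated against untreated samples (2 at an unadjusted p under 0.05, beside 37% of all genes). XIAP, which blocks caspases directly, had an adjusted p of 0.0598 with 55.3 to 66.1 CPM in treated and 68.3 to 73.3 CPM in untreated samples. BIRC5, which encodes survivin, rose along the doses with a slope of 0.19 ± 0.05 (SE, adjusted p = 0.0419).

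Of the 11 ubiquitin ligases, deubiquitinases and kinases known to act on the MCL1 protein, 0 rose in treated against untreated samples (edgeR's quasi-likelihood test, Benjamini-Hochberg), beside 13.1% of all genes higher and 11.3% lower. USP13, a deubiquitinase, fell by 0.54 on the log2 scale (adjusted p = 0.00472 by the same test), and was at -0.34 with the day 2 samples left out (adjusted p = 0.037). None of the list was called at a single dose against C2, where 2.34% to 8.32% of all genes were.

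Among 13 transcription factors known to act on BH3-only or survival genes, DDIT3 stood out. DDIT3, which encodes the stress factor CHOP, held 6.22 to 14.9 CPM in untreated and 30.8 to 48.1 CPM in treated samples, with no overlap. It was higher at each of the 4 doses against C2, by 1.72, 1.44, 1.81 and 1.70 on the log2 scale (adjusted p = 0.00426, 0.0121, 0.00212 and 0.00412, edgeR's quasi-likelihood test), and by 1.91 ± 0.18 (SE) over all treated samples (adjusted p = 5.41e-06). E2F1, a factor of entry into S phase, fell by 1.09 on the log2 scale (adjusted p = 4.46e-05), from 25.96 to 48.03 CPM in untreated to 13.5 to 16.7 CPM in treated samples. TP63 rose and TP73 fell, and both were low, with at most 4.27 and 5.96 CPM. The other 9 were not called, so that 4 of 13 were, beside 24.4% of all genes. With the day 2 samples left out these 4 were called again, DDIT3 at 1.68, E2F1 at -0.84, TP63 at 0.63 and TP73 at -0.74, smaller in size than with them.

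Of 12 markers of mitosis, 5 were called lower and 0 higher in treated against untreated samples (edgeR's quasi-likelihood test), beside 11.3% of all genes lower and 13.1% higher, among them TOP2A at -0.94 and CDK1 at -1.01 on the log2 scale (adjusted p = 0.000371 and 0.000475). With the day 2 samples left out 4 of these 5 were called again, TOP2A at -0.58 and CDK1 at -0.61, and MKI67 was not (-0.34, adjusted p = 0.123). Within the treated samples 3 of the 12 rose along the doses and 0 fell, beside 1.02% and 2.04% of all genes, CCNB1, AURKA and BUB1B, with slopes of 0.24, 0.21 and 0.21 per 10-fold dose (adjusted p = 0.0314, 0.0476 and 0.0237). At 0.05 μM against C2, CDK1 and TOP2A were called lower (-0.89 and -0.88, adjusted p = 0.0238 and 0.00714). At 0.5 μM against C2, AURKA and CCNB1 were higher by 0.75 and 0.84 (adjusted p = 0.0247 and 0.0279) and TOP2A was at -0.58 (adjusted p = 0.0496). Their summed level was 1225 to 1680 CPM in treated and 1612 to 2536 CPM in untreated samples. All 12 were lower on day 4 than on day 2 without drug, 11 of them at an unadjusted p under 0.05, beside 10% of all genes, and 0 called, beside 0.325%. The part of this shift in the changes of the BCL2 family was not tested. Markers of other cells moved too, from low levels. In treated against untreated samples 1 of 3 endothelial (KDR, by 1.26), 1 of 4 fibroblast (COL3A1, by 2.03) and 1 of 2 leukocyte markers tested (PTPRC, by 1.43) were called higher. With the day 2 samples left out KDR was called again, at 1.17, and COL3A1 (1.97) and PTPRC (0.90) were not (adjusted p = 0.0562 and 0.278). Against C2, COL3A1 was called higher at 0.05 and 0.5 μM (2.62 and 2.37, adjusted p = 0.00278 and 0.00663), as was KDR (1.31 and 1.16, adjusted p = 0.0195 and 0.0419). COL3A1 also rose along the doses, with a slope of 0.62 per 10-fold dose (adjusted p = 0.0129). The summed level was 1.96 to 2.94 CPM in treated and 0.418 to 1.51 CPM in untreated samples for the endothelial list, 12.2 to 19.6 and 8.83 to 16.9 CPM for the fibroblast list, and 0.184 to 0.459 and 0.0895 to 0.323 CPM for the leukocyte list. No marker matched in the table was at 0 in all samples of either kind. Of the 6 markers of the line itself, AXL and CAV1 were called lower, with log2 fold changes of -0.88 and -0.34, and with the day 2 samples left out AXL at -0.67 (CAV1 at -0.20, adjusted p = 0.283). The part of these markers in the results was not tested.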

How the data were processed

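Total RNA of 12 samples was sequenced by the study as paired-end reads. Per the methods and the submitters' processing notes, the authors checked reads with FastQC 0.11.9, trimmed them with Trimmomatic 0.39, aligned them to GRCh37 (hg19) with STAR 2.7.5, and counted uniquely aligned reads in exons of each gene. The deposited values are these whole-number counts, neither normalized nor pooled, and the single-sample columns were identical to the series table in all 12 cases. The members and gene lists were chosen with earlier results of these data known. Other genes of the lists were drawn from a list's largest changes in treated against untreated samples (4) or at 0.5 μM (2), ranked by unadjusted p. Not all of these are named. BID, BUB1B and MKI67 were chosen after their values were seen, and HRK is named as untested. KRT8, ESR1, CDH1, PGR, EPCAM, GATA3, VIM, CD44, AXL, CAV1, KDR, COL3A1 and PTPRC are named as cell markers.

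Counts were scaled by TMM, filtered by filterByExpr with the 6 conditions as groups, and tested in edgeR 4.0.16 (R 4.3.3) with robust quasi-likelihood fits, two-sided, at an adjusted p (Benjamini-Hochberg, 25249 genes) under 0.05. The doses and days were compared in 1 model of 12 samples, and the treated against untreated samples and the slope on log10 dose in fits of their own. A standard error is the absolute log2 fold change over the square root of F. The log2 CPM values use a prior count of 2. RPKM divides CPM by the exon length in GENCODE 44. The test was checked on simulated counts with known changes. These were drawn with the same spread for every gene and sample, so the check does not cover the uneven spread seen in C1. The study compared conditions with DESeq2, which was an alternative here (1.42.0). Others were RLE scaling, 3 filters, no robust estimation, offsets for GC content and length, the replicate number as a block, other sets of samples, and leaving out each sample. Same-numbered samples deviated together in only 8 of 15 pairs of conditions (correlations from -0.6 to 0.682), so the numbers were not taken to pair samples. Protein sequences were not analysed here. The result of 1 gene of the list acting on the MCL1 protein is not reported here.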

Additional observations from a re-analysis of the deposited data

Results flagged for a closer look

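MCL1 in replicate 2 of C1 lay far from the other untreated samples, at 592 CPM, where they held 709.6 to 736 CPM. Of 20 groups of samples examined in this way, this was the only 1 with a sample apart, and chance gives about 1 in 20. Without that sample the log2 fold change of MCL1 in treated against untreated samples was -0.46 (adjusted p = 0.0191, edgeR's quasi-likelihood test), beside -0.41 with it.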

How the results depend on the processing

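Numbers of members called depended on the samples and the tool. DESeq2 called 3 at 0.0005 μM, 4 at 0.005 μM and 4 by slope (4.65%, 5.39% and 6.72% of all genes), and leaving all genes above 1 count in called 3 and 4 at the 2 lowest doses (3.03% and 3.9%). Offsets for GC content and length gave 3, 4, 5 and 5 from the lowest to the highest dose, 1 between the untreated days (BCL2A1) and 4 by slope (5.34%, 6.31%, 12.4%, 11%, 0.804% and 6.58% of all genes). The 10 samples of day 4 gave 4, 5, 7 and 6 (10.3%, 12.7%, 19.2% and 20% of all genes) and the 4 samples of a comparison alone 4, 5, 4 and 6 (12%, 11%, 12.6% and 11.4%). Both untreated days as the control gave 3 and 3 at the 2 lowest doses (6.17% and 10.3%), and the 2 higher against the 2 lower doses 1 by slope (1.48%). Leaving out single samples gave 0 to 4, 0 to 5, 0 to 7 and 0 to 6 members from the lowest to the highest dose, with the most without a C1 sample, where 9.23% to 18.8% of all genes were called. Over all samples left out in turn that share ran from 0.316% to 18.8% at the doses, from 0.175% to 10% between untreated days, from 15.6% to 26.4% for treated against untreated samples and from 0.46% to 3.73% by slope. The counts were 0 to 3 between untreated days (3 without C1 replicate 2), 4 to 7 for treated against untreated samples, and 1 to 3 by slope. The cause was not tested.

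The replicate number, taken as a block, gave 1, 1, 4 and 3 members from the lowest to the highest dose, 0 between untreated days, 6 for treated against untreated samples and 2 by slope, so that only BCL2L1 at 0.05 μM was called in addition (2.67%, 3.55%, 8.64% and 7.15% of all genes at the doses, then 0.364%, 24.2% and 1.66%). With the block and the offsets together the counts were 3, 5, 5 and 5, and 1 between untreated days (5.57%, 6.75%, 12.7%, 11.7% and 0.795% of all genes).

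In 46 cases a member changed direction, each of them uncalled in the reported fit, and the cause was not tested. Offsets turned BCL2L11 at 0.005 μM to 0.0586 (0.0624 with the block), BCL2L2 at 0.05 μM to 0.0104 (0.0105 with the block) and at 0.5 μM to 0.0128 (0.013), BAX at 0.5 μM to 0.0036 (0.0023), BCL2A1 at 0.05 μM to 0.035 (0.0413), and PMAIP1 between untreated days to 0.13 (0.13). A filter at a mean of 1 CPM gave 0.025 for BCL2L11 at 0.005 μM, 0.0549, 0.0654 and 0.0263 for BCL2L2, BAX and BCL2A1 at 0.05 μM, and 0.014 for BCL2L11 between untreated days. At 0.05 μM, no filter gave 0.0045 for BCL2L2 and 0.0141 for BAX, a mean count of 10 gave 0.0043 for BAX, the 4 samples alone 0.0147 for BCL2L2 and 0.0241 for BAX, the 10 samples of day 4 0.0015 for BAX, and both untreated days 0.23 for BCL2A1. BMF was at -0.0029 between the 2 higher and the 2 lower doses.

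Without single samples, BCL2L11 ran from -0.16 to 0.24 at 0.0005 μM and from -0.26 to 0.14 at 0.005 μM. At 0.05 μM BAX ran from -0.12 to 0.0749 and BCL2A1 from -0.32 to 0.28, and at 0.5 μM from -0.25 to 0.02 and from -0.60 to 0.0094. Between untreated days the ranges were -0.35 to 0.48 for BCL2L11, -0.35 to 0.31 for PMAIP1, -0.57 to 0.42 for BCL2, -0.32 to 0.0174 for BAK1, -0.0784 to 0.39 for BCL2L1, -0.13 to 0.31 for BCL2L2 and -0.0826 to 0.29 for BMF, and the slope of BMF ran from -0.008 to 0.0441.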

Other observations

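The genes whose log2 CPM ran most closely with that of a called member were sought among 11009 genes over the 12 samples, 3 for each of 4 members. For BMF they were ABCA1, FHDC1 and AP5Z1 (Pearson's r = 0.959, 0.942 and 0.939), and for PMAIP1 RWDD2A, IFNGR1 and CASP4 (0.960, 0.959 and 0.957). For BCL2L1 they were CAPN2, MCAM and PLPP2 (0.987, 0.985 and 0.984), and for BCL2 SMC1A, EIF4G3 and CABLES2 (0.980, 0.976 and 0.975). These points share libraries, depth and the same treatment groups, and the values are descriptions without a test.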
